A study of Rattus norvegicus with 20 samples.

Results

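The cultures compared here are the 2 groups of rat bone marrow-derived mesenchymal stromal cells (MSCs) whose surface was changed, in opposite directions, on the way. Soft-primed cells spent 3 weeks on 2 kPa silicone and then 2 weeks on 100 kPa silicone (3w2→2w100), and stiff-primed cells spent 3 weeks on 100 kPa and then 2 weeks on 2 kPa (3w100→2w2). They were chosen by their labels and make up 4 of the 20 RNA-seq libraries, 2 in each group. The other 16 libraries came from cells kept on 1 surface, either 2 kPa or 100 kPa. They comprise 3 libraries per group at week 1, named 1w2 and 1w100, 3 per group at week 3, named 3w2 and 3w100, and 2 per group at week 5, named 5w2 and 5w100. All cells came from female Wistar rats, grew on gelatin-coated silicone, were passaged once a week and were first expanded on the surface on which they were later primed. They had been enriched with magnetic beads against CD54 and CD90, so that both groups are selected primary cultures and not a line or a clone.

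MSCs are marrow cells that can form bone, fat and cartilage and that support repair by the factors they release. They sense the stiffness of the surface they hold on to through adhesions and the contractile cytoskeleton. On stiff surfaces they can turn into myofibroblasts, cells with α-smooth muscle actin in their stress fibers that lay down and contract matrix. When a state taken up on 1 surface outlasts the move to another, this is called mechanical memory. In this pair of groups the priming surface and the current surface point in opposite directions. A gene that is higher in 3w2→2w100 is higher in the cells that were first on the soft surface and were on the stiff surface when RNA was taken, and the comparison by itself does not separate the history from the present surface. The groups of 5 weeks on 1 surface help to read it, since in them both point the same way.

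The deposited table holds raw counts for 30560 Ensembl gene identifiers. These files do not pair identifiers with gene symbols, and 0 of 30560 could be given one, so that genes are named by identifier, the roles of the genes are not given, lists of fibrotic and anti-fibrotic genes were not counted, and the labelled cell type was not checked against markers. The 4 switched libraries had 17543926 to 19072978 counts on genes, within the range of the other 16 (16127907 to 24139128). Between 15406 and 16286 genes had counts in a switched library, against 15639 to 16961 in the others, and the 10 most abundant genes held 13.5 to 18.3% of a switched library's counts. Values in CPM are counts relative to the library total, scaled with edgeR's TMM factors. In bulk RNA, fewer cells that express a gene and less of its RNA in each cell cannot be told apart. The authors call the libraries of a group biological replicates, a term they use for MSCs from different rats. The labels do not say which rat a library came from or whether a number marks the same rat in different groups. Unless said otherwise, the p-values set a change against the spread between replicate libraries, estimated over all 20 libraries and not over the 4 switched ones alone.

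Most genes that passed the test between the switched groups were lower in soft-primed cells, while the number that passed varied widely with the test and the libraries used. edgeR's quasi-likelihood test, fitted on all 20 libraries, called 8 of 14034 tested genes at a Benjamini-Hochberg adjusted p below 0.05, which is 0.057% of the genes tested. Of these, 1 gene was higher (0.00713%) and 7 were lower (0.0499%) in 3w2→2w100. The fitted changes were 2.07- to 59.8-fold, and in all 8 genes the CPM of the groups did not overlap. Such a separation is common with 2 libraries against 2, and 5405 genes showed it (38.5%), 2499 higher and 2906 lower in 3w2→2w100. At an unadjusted p below 0.05 there were 2029 genes (14.5%), 739 higher (5.27%) and 1290 lower (9.19%), where 702 in all would be expected without any difference.

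**Figure D1:**
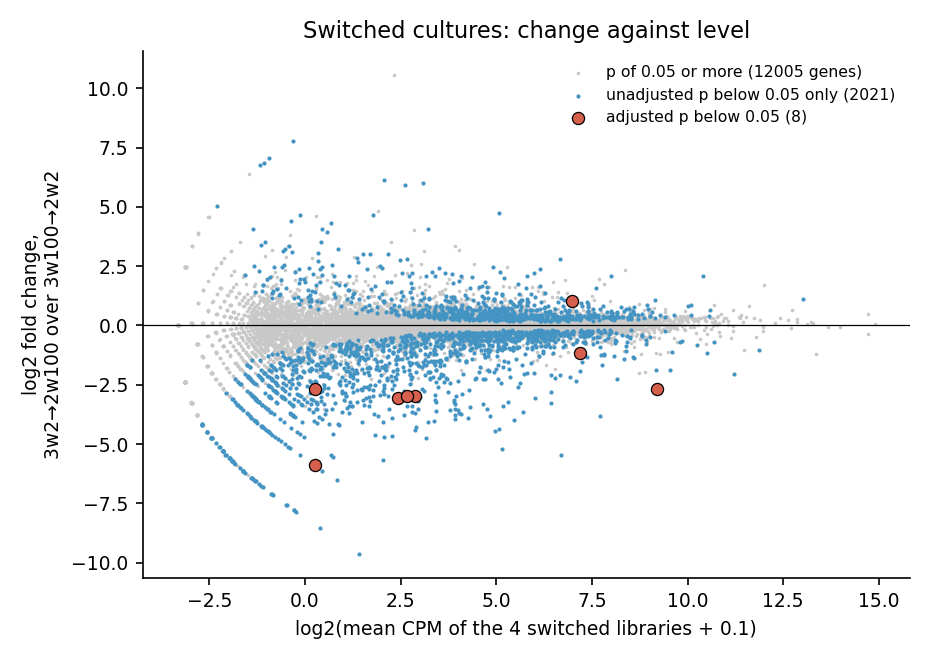
Change between the switched groups against level. Each point is 1 of 14034 genes, the x axis is the log2 of the mean CPM of the 4 switched libraries plus 0.1, and the y axis is the log2 fold change of 3w2→2w100 over 3w100→2w2. Of the 8 called genes, 7 lie below 0.

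The count of called genes, like the choice of genes in it, rested on single libraries and on the test. It was 0 without 3w2→2w100 replicate 1, 0 without 3w2→2w100 replicate 2, 0 without 3w100→2w2 replicate 2 and 9 without 3w100→2w2 replicate 1. DESeq2 on the same 20 libraries called 408 genes (2.91%), 77 higher and 331 lower in 3w2→2w100, and these held all 8 genes called by edgeR.

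ENSRNOG00000007319 was the 1 called gene that was higher in soft-primed, switched cells. Its level was 166 and 176 CPM in 3w2→2w100, against 87.5 and 78.0 CPM in 3w100→2w2. The lower of the soft-primed libraries thus lay well above the higher of the stiff-primed ones. The log2 fold change was 1.05 (SE 0.15, edgeR adjusted p = 0.0194, n = 2 per group). In 1w2 its mean level was 122 ± 14.2 CPM (SD, n = 3), beside 112 ± 6.23 (SD, n = 3) in 1w100. In 3w2 it was 132 ± 24.9 CPM (SD, n = 3), beside 110 ± 11.7 (SD, n = 3) in 3w100, and the libraries of the compared groups overlapped at both times. In 5w2 it reached 165 ± 9.27 CPM (SD, n = 2), beside 79.1 ± 2.00 (SD, n = 2) in 5w100. The switched groups thus had levels like those of the 5-week group with the same first surface, with the soft-primed levels above and the stiff-primed levels below those of week 1. The switched difference and the 5-week difference were apart by -0.01 on the log2 scale (SE 0.22, edgeR adjusted p = 1.00).

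ENSRNOG00000047712 had the largest fitted fold change among the called genes and was nearly absent from soft-primed, switched cells. In 3w2→2w100 replicates 1 and 2 it had 1 and 0 counts, against 46 and 32 counts in 3w100→2w2, or 0.0584 and 0 CPM against 2.49 and 1.82 CPM. The fitted log2 fold change was -5.90 (SE 0.87, edgeR adjusted p = 0.0194, n = 2 per group), but with 1 count in the lower group its size is poorly fixed. The ratio of the summed counts, scaled to library size, was 72.8 in favour of 3w100→2w2, with an exact 95% interval of 12.7 to 2913 for counting error only. The same gene had 9 to 21 counts in every 1-week library. On soft surfaces it had 11 to 21 counts after 3 weeks and 1 and 3 counts after 5 weeks, and on stiff surfaces 25 to 76 counts after 3 weeks and 26 and 53 after 5 weeks.

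At higher levels than the gene before, ENSRNOG00000007370 was also lower in soft-primed, switched cells. Its values were 1.28 and 0.967 CPM in 3w2→2w100 and 9.25 and 9.62 CPM in 3w100→2w2. Replicates were close in both groups, and the log2 fold change was -3.06 (SE 0.40, edgeR adjusted p = 0.0101, n = 2 per group). Both 1-week groups held it at about one level, with 11.2 ± 3.11 CPM (SD, n = 3) for 1w2 and 11.8 ± 3.06 CPM (SD, n = 3) for 1w100. For 3w2 the level was 4.94 ± 2.00 CPM (SD, n = 3) and for 3w100 9.82 ± 0.451 CPM (SD, n = 3), without overlap between the libraries, although edgeR did not call that difference (adjusted p = 0.777). For 5w2 it was 0.987 ± 0.313 CPM (SD, n = 2) and for 5w100 7.03 ± 0.263 CPM (SD, n = 2). The level in 3w2→2w100 was therefore below that of every 3w2 library, although the cells had been moved to the stiff surface in between.

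**Figure D2:**
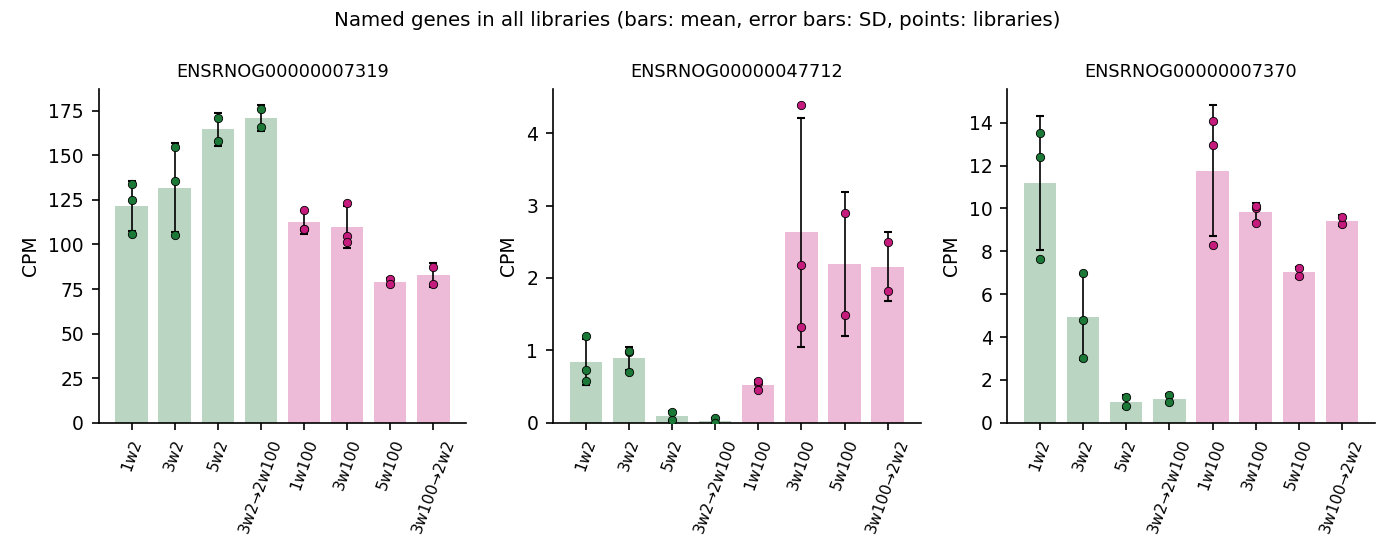
Levels of the 3 named genes in all 20 libraries. Bars give the mean CPM of a group, error bars the SD and points single libraries, with soft-primed groups in green and stiff-primed groups in magenta. The switched groups, last of each colour, lie near the 5-week group of the same colour and far from the switched group of the other colour. The gap between the switched groups is set by the rule that chose these genes.

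The most abundant of the 7 lower genes had 2820 and 2522 counts in soft-primed, switched cells, against 15089 and 21691 in stiff-primed, switched cells. That is 165 and 152 CPM against 817 and 1234 CPM, a log2 fold change of -2.69 (SE 0.35, edgeR adjusted p = 0.0101). On the soft surface it had 771 ± 160 CPM (SD, n = 3) at week 1, 465 ± 170 CPM (SD, n = 3) at week 3 and 169 ± 17.7 CPM (SD, n = 2) at week 5. On the stiff surface it had 766 ± 202, 794 ± 180 (both SD, n = 3) and 1010 ± 212 CPM (SD, n = 2) at these times. The levels thus parted through lower values in soft-primed cells, and the level in 3w2→2w100 was near that of 5w2. Across the 7 lower genes the log2 fold changes were -1.17 to -5.90 with a median of -2.96. Their levels spanned 0 to 165 CPM in the soft-primed and 1.46 to 1234 CPM in the stiff-primed switched libraries. The gene with the smallest of these changes was at 92.9 and 86.8 CPM in 3w2→2w100 and at 214 and 190 CPM in 3w100→2w2.

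The 8 called genes were then read in the cultures that had stayed on 1 surface. These comparisons share no library with the switched one apart from the common estimate of the spread, but cultures with the same replicate number may have shared their first weeks. Between 5w2 and 5w100, where edgeR called 37 genes (0.264%), all 8 had the same direction as between the switched groups and 7 of the 8 were themselves called. The exception was lower in 5w2 by a log2 fold change of -1.20 (adjusted p = 0.173), beside -2.67 between the switched groups. Between 3w2 and 3w100, where 0 genes were called (0%; 863 at an unadjusted p below 0.05, or 6.15%), all 8 again had the same direction. Between 1w2 and 1w100, 6 of 8 did. Across the 7 lower genes the median log2 fold change from stiff to soft grew in size with time, from -0.06 in week 1 to -0.82 in week 3 and -2.58 in week 5, beside -2.96 between the switched groups. All 8 changes were larger between the switched groups than at 3 weeks, which the choice of the genes by the switched comparison partly fixes.

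The difference between the switched groups was tested directly against the difference after 5 weeks on 1 surface. edgeR called 0 of 14034 genes (0%), and DESeq2 also called 0. At an unadjusted p below 0.05 edgeR had 114 genes (0.812%), where 702 would be expected without any difference. The model treated all libraries as independent. Yet replicate differences correlated with r = 0.760 and 0.802 between each switched group and the 5-week group of the same priming surface. The standard errors and p-values of this test may therefore be too large, and its 0 calls do not decide whether the differences are the same. In the 8 called genes the 2 differences were apart by -1.47 to 0.30 on the log2 scale, with standard errors of 0.22 to 1.30. These values are partly fixed by choosing the genes on the switched comparison. Against the difference after 3 weeks, edgeR again called 0 genes (0%), with 556 at an unadjusted p below 0.05 (3.96%), 161 positive and 395 negative, where 702 would be expected without any difference. DESeq2 called 2. An uncalled difference does not show that the gaps are equal.

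The wider set of genes at an unadjusted p below 0.05 was uneven in size as well as in number. The 739 genes higher in 3w2→2w100 had a median log2 fold change of 0.51, and the 1290 lower genes one of -1.26, while the median size over all tested genes was 0.22. At least 2-fold apart were 187 of the higher and 736 of the lower genes. The excess on the lower side was largest among weakly expressed genes. When the genes were ranked by level and cut into 4 classes of equal size, the lowest class (0.199 to 3.96 CPM) had 108 higher and 458 lower genes, with median log2 fold changes of 1.80 and -2.46. In the highest class (50.7 CPM and above) 226 were higher and 255 lower, with medians of 0.39 and -0.48. The share of genes below the threshold was similar across the classes, at 13.6 to 16.1%.

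At the extreme were 4 of the 17816 genes with counts in any of the 4 switched libraries. They had 0 counts in both 3w2→2w100 libraries and at least 10 counts in both 3w100→2w2 libraries. The reverse was seen in 0 genes, and these numbers are a description without a test. Set against a floor of 3 counts over the group, the summed counts of these 4 in 3w100→2w2 were 9.96-, 10.3-, 13.7- and 56.6-fold higher. The floor allows for counting error in the 0 only, so that these ratios are not lower bounds. Counts of the 4 genes were 0 to 3 in the 5w2 libraries and 7 to 164 in the 5w100 libraries. None of the 4 passed the adjusted threshold of edgeR (adjusted p = 0.0780 to 0.120). The gene with the highest ratio had 15 counts in one 3w100→2w2 library and 167 in the other, and 9 and 164 in the same-numbered 5w100 libraries.

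Most of the 2029 genes had the same direction in cells that had not been switched, although the 5-week libraries may not be independent of the switched ones. Replicate differences correlated with r = 0.760 and 0.802 between each switched group and the 5-week group of the same priming surface. Differences between single cultures can therefore recur in both comparisons, and their part in the shared directions at 5 weeks was not tested. Between 5w2 and 5w100, 720 of the 739 higher genes and 1249 of the 1290 lower genes had the same sign, which is 97.4% and 96.8%, beside 77.0% of all tested genes. There the median log2 fold change was 0.42 for the higher and -1.01 for the lower set. A total of 380 and 838 of them also had an unadjusted p below 0.05 in the same direction at 5 weeks, where 15.4% of all genes did in either direction, and 1 and 0 had one in the opposite direction. Between 3w2 and 3w100 the same sign was found in 646 and 1148 genes (87.4% and 89.0%, beside 67.0% of all tested genes), with medians of 0.20 and -0.36. Between 1w2 and 1w100 it was found in 513 and 888 (69.4% and 68.8%, beside 57.6%), with medians of 0.04 and -0.06. Read the other way, of the 840 genes higher in 5w2 than in 5w100 at this threshold 788 were higher in 3w2→2w100, and of the 1327 lower genes 1292 were lower, with median log2 fold changes between the switched groups of 0.36 and -0.93.

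Followed from week 1 on their own priming surface, the medians of the 2 sets of genes parted in both lineages. Those of stiff-primed cells kept on 1 surface changed little from week 3 to week 5. In both sets the quartiles across genes spanned 0 in 3w2, 3w100, 5w100 and 3w100→2w2, but not in 5w2 or 3w2→2w100. The 1290 lower genes had a median change in soft-primed cells of -0.10 on the log2 scale in 3w2, -0.51 in 5w2 and -0.64 in 3w2→2w100. In stiff-primed cells it was 0.11 in 3w100, 0.14 in 5w100 and 0.19 in 3w100→2w2. Of these genes, 1054 were lower in 3w2→2w100 than in 1w2, and 835 were higher in 3w100→2w2 than in 1w100. Among all 14034 tested genes, 7231 were lower and 6834 were higher in the same comparisons. The values of the switched groups are partly fixed in both sets, because the genes were chosen on these groups. For the 739 higher genes the soft-primed medians were 0.08, 0.25 and 0.30 and the stiff-primed medians -0.07, -0.09 and -0.16 in the same order. At week 5, in the switched groups and in those on 1 surface, these medians were larger in size on the soft-primed side in both sets, while at week 3 they were of similar size on both sides. Over all tested genes these medians lay between -0.02 and 0.00 in the 3-week, 5-week and switched groups.

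**Figure D3:**
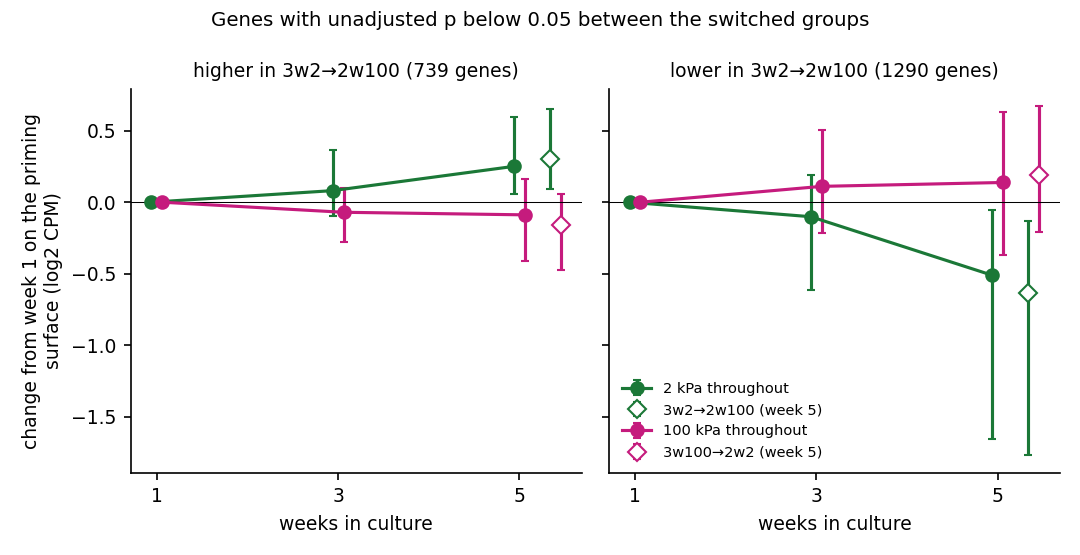
Median change from week 1 of the genes at an unadjusted p below 0.05 between the switched groups. The y axis is the log2 change of the group mean from 1w2 or 1w100, the x axis the weeks in culture, and error bars span the quartiles across genes. Open diamonds, the switched groups at week 5, lie beside the 5-week points of their own priming surface, at -0.64 beside -0.51 for the lower genes of soft-primed cells. The place of the diamonds is partly fixed by choosing the genes on the switched groups.

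Grouping the 8 libraries of 5 weeks by their first or by their last surface gave unequal numbers of separated genes. The CPM of all 4 soft-primed libraries lay above those of all 4 stiff-primed libraries in 1215 genes and below them in 1497. Together these are 2712 of the 14034 tested genes and include the 8 called genes. When the libraries were grouped by the current surface, the 4 libraries on stiff lay above the 4 on soft in 40 genes and below them in 47. Together these are 87 of the 14034 tested genes and include 0 of the 8. Where the 8 fall is partly fixed, since they were called on 4 of these libraries and their groups lay apart there. All of these counts are a description without a test. The same-numbered switched and 5-week libraries of one priming surface were much closer to each other than replicates were, as the distances given next show. Grouping by the first surface keeps such close libraries on one side and grouping by the last surface splits them, so that the 8 libraries do not count as separate cultures and the unequal counts cannot be told apart from this closeness.

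Over all genes the distances between the switched groups overlapped those between replicates and reached beyond them. As a measure of distance, the root mean square difference in log2 CPM over the 14034 genes was taken. It was 0.729 between the 3w2→2w100 replicates and 0.709 between the 3w100→2w2 replicates. Between the groups it was 0.659 for the replicates numbered 1, 0.977 for those numbered 2, 1.03 for 3w2→2w100 replicate 1 with 3w100→2w2 replicate 2, and 0.763 for the remaining pair. Thus 3w2→2w100 replicate 1 was nearer to 3w100→2w2 replicate 1 than to its own replicate, and 3w100→2w2 replicate 2 was far from both soft-primed libraries. The latter library is also one of the 3 without which 0 genes were called.

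The number of genes at least 2-fold apart varied in the same way. In the 4 pairings of a 3w2→2w100 with a 3w100→2w2 library, 448 to 1044 genes were at least 2-fold higher and 973 to 1676 at least 2-fold lower in 3w2→2w100, and in each pairing the lower genes were more numerous. Between replicates 1555 genes were at least 2-fold apart in 3w2→2w100 and 1636 in 3w100→2w2. Of the 14034 tested genes, 87 were at least 2-fold higher and 370 at least 2-fold lower in 3w2→2w100 in all 4 pairings. These include 7 of the 8 called genes, which is partly fixed because the 8 were called on these same libraries.

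**Figure D4:**
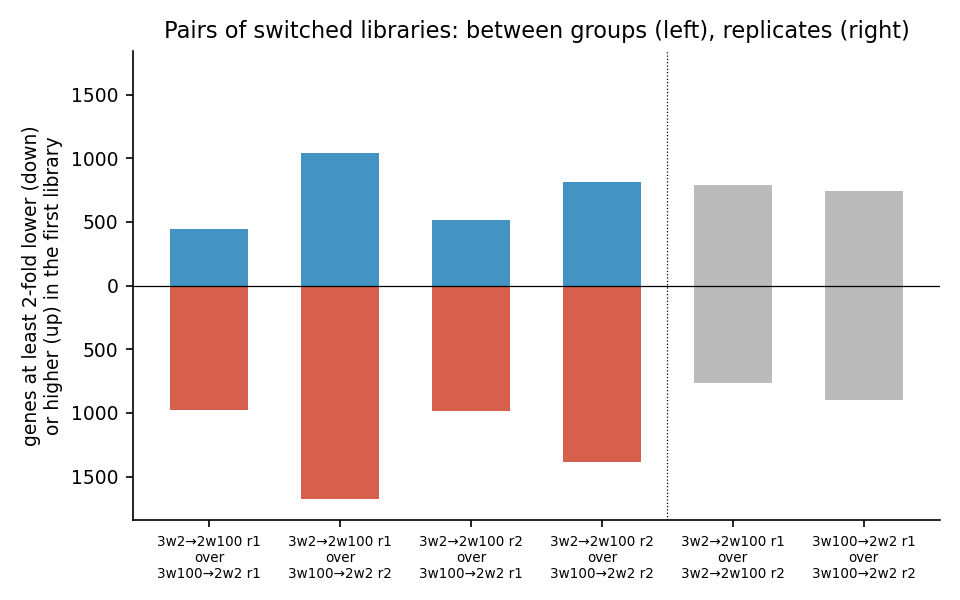
Genes at least 2-fold apart in each pair of switched libraries. Bars above 0 count the genes higher and bars below 0 those lower in the first library named, coloured for pairs between the groups and grey for replicates. The 4 coloured pairs have 973 to 1676 genes on the lower side, and the grey pairs 768 and 897.

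Each switched library was nearest to 1 particular library among the other 19. For 3w2→2w100 replicates 1 and 2 this was 5w2 replicate 1 (0.340) and 5w2 replicate 2 (0.327), and for 3w100→2w2 replicates 1 and 2 it was 5w100 replicate 1 (0.341) and 5w100 replicate 2 (0.334). The nearest library thus had the same priming surface, the same replicate number and the other current surface in all 4 cases. These distances were below 0.5 times those between replicates of a switched group. The next nearest library was the same-numbered one of 3w2 or 3w100 at 0.478 to 0.630. Restricting the measure to the 8660 genes with a mean of at least 10 CPM, chosen with the values in view, lowered the smallest distances to 0.152 to 0.191 and left the nearest library the same in all 4 cases. The next nearest library changed for 3w2→2w100 replicate 1, to 5w100 replicate 1 (0.421), ahead of 3w2 replicate 1 (0.443). It stayed the same for the other switched libraries. Libraries that share a number and a priming surface may come from 1 culture that was divided at week 3, and the part of such shared origin in the agreement between the switched and the 5-week differences was not tested.

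**Figure D5:**
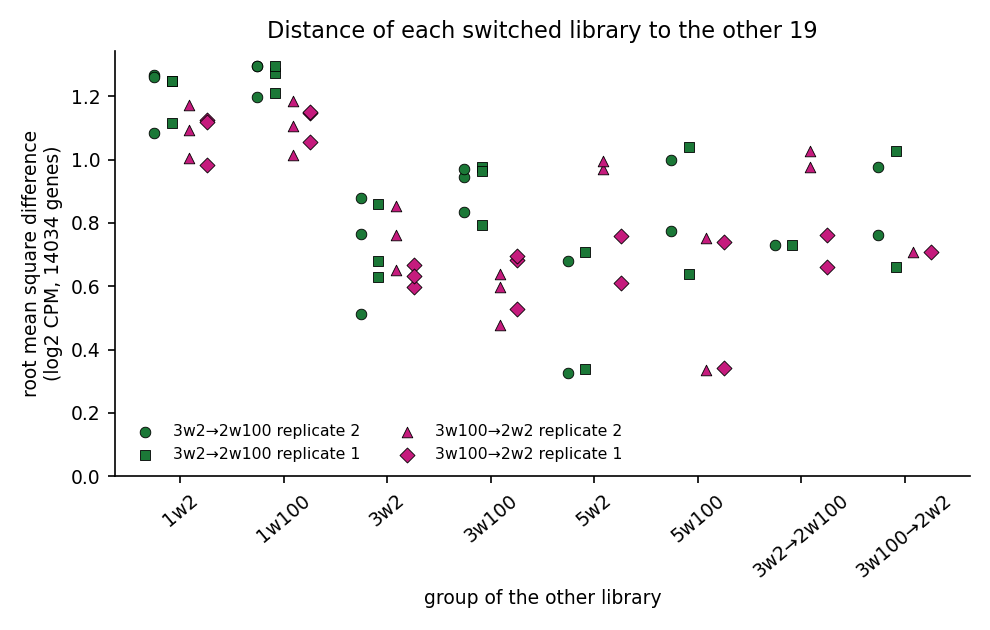
Distance of each switched library to the other 19 libraries. The y axis is the root mean square difference in log2 CPM over 14034 genes and the x axis the group of the other library, with soft-primed libraries in green and stiff-primed ones in magenta. Each of the 4 libraries has 1 point at 0.327 to 0.341, in 5w2 for the soft-primed and in 5w100 for the stiff-primed libraries.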

How the data were processed

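The authors trimmed the reads with Trim Galore, checked them with FastQC, aligned them to rn7 (mRatBN7.2) with HISAT2 and made raw counts per gene with featureCounts. Not given in the sources used here are versions and the use of strand and multimapping reads in counting, so that overlapping and near-identical genes are uncertain. The deposited counts were analysed without further processing. Groups and replicate numbers came from the labels, and 0 rows and 0 columns named no gene or sample. In R 4.3.3, edgeR 4.0.16 was run with TMM factors, filterByExpr (minimum count 10, minimum total 15) and the quasi-likelihood test. All 8 groups (20 libraries) entered the model, and the replicate number did not. Log2 CPM used a prior count of 2. The threshold was an adjusted p of 0.05. Standard errors are the log2 fold change over the root of F. DESeq2 1.42.0 was an alternative, beside RLE factors, other filters, fits on fewer groups, a replicate block and leaving out single libraries. For counting error only, an observed 0 allows up to 3 counts. Named genes were those of largest change among called genes with separate groups and a mean of at least 1 CPM, up to 2 identifiers in each direction, and other called genes were described after their values were seen. The comparison, rules and lists were chosen with earlier results of these data known. Scripts were tested on simulated data.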

Additional observations from a re-analysis of the deposited data

How the results depend on the processing

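The number of genes called between 3w2→2w100 and 3w100→2w2 was 8 and was within 1.5 times of this with RLE factors (7), with a filter on a mean of 10 counts (9) and with a change of at least 2-fold required as well (8). It was 19 without a filter on low counts, 0 with edgeR on the 5-week groups (1269 at an unadjusted p below 0.05), 0 with edgeR on only the groups compared (980 unadjusted), 264 with DESeq2 on only the groups compared, 408 with DESeq2 on all groups, and 2029 at an unadjusted p. With a replicate block, edgeR called 340 genes, 74 higher and 266 lower in 3w2→2w100, including all 8. The labels do not say that a number marks one rat across groups, and there are only 2 numbers here. Across genes, the difference between replicates 1 and 2 correlated with r = 0.237 between the switched groups, and with r = 0.760 and 0.802 between each of them and the 5-week group of the same priming surface. Without 1 library the count was 0 to 9. The lower genes were 74.2 to 88.9% of those called at the adjusted threshold in the settings that called any, and 63.6% of those at an unadjusted p. For the switched against the 5-week difference, the count of 0 became 114 at an unadjusted p and stayed 0 in the 16 other settings, those without 1 library included. For the switched against the 3-week difference, it became 2 with DESeq2 on all groups, 3 with DESeq2 on only the groups compared and 556 at an unadjusted p. The cause of these changes was not tested. Of the genes at an unadjusted p below 0.05 between the switched groups, 97.0% kept their sign when 5w2 was set against 5w100, and 87.6 to 98.3% in 10 alternatives, lowest without 3w2→2w100 replicate 2. ENSRNOG00000007319 kept its direction in 12 of 12 settings (log2 fold change 0.97 to 1.14, adjusted p 5.3e-07 to 0.369) and was called in 6. ENSRNOG00000007370 kept its direction in 12 (-3.28 to -2.87, adjusted p 3.4e-09 to 0.278) and was called in 7. ENSRNOG00000047712 kept its direction in 12 (-8.39 to -5.06, adjusted p 0.00655 to 0.373) and was called in 6. A group reduced to a single library was given the spread of the remaining groups. Counts over gene lists were not run without symbols.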
